A study of Mus musculus with 18 samples.

Results

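The samples described here are the control line of a C2C12 series in 2 media, 6 libraries of the 18 in the series, chosen by their labels and not by any measured value. C2C12 is a mouse myoblast line, here labelled as muscle tissue. The line is a stable one transfected with a control plasmid, and it was sequenced while proliferating in growth medium (GM, 3 libraries) and once 2 days had passed in a differentiation medium (DM2, 3 libraries). The other 12 libraries are an ERK3-depleted and an MK5-depleted line of the same cells in the same media, 3 libraries per line and medium, and they enter here as part of the fitted model and in the last comparison. The control plasmid is carried in both media, so it is shared by the groups compared. The labels do not say whether the 3 libraries of a group are separate cultures or passages, nor whether the line is 1 clone. The p-values therefore measure only the spread between libraries within a group. That spread was estimated over all 18 libraries, the depleted lines included.

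Skeletal myoblasts are kept dividing by serum growth factors. When these are withdrawn, the bHLH factors MyoD and myogenin, working with MEF2 factors on E-box and MEF2 sites, switch on the genes of the contractile apparatus, the cells leave the cell cycle through p21 and the retinoblastoma protein, and they fuse into multinucleated myotubes. Not every cell fuses: in this line some stay single as reserve cells. The RNA of a culture is the sum over all of its cells, so fewer cells of a type and less RNA per cell cannot be told apart in any value below.

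The control libraries held 24119131 to 30100191 reads, and 18168831 to 22376041 reads were counted in genes. Of 50600 gene identifiers 13939 passed the filter on low counts and were tested. The share of reads that mapped to several places, which are not counted, was 14.5 to 14.8% at DM2 and 17.1 to 17.8% in GM. The part of this difference in the results was not tested. Levels are given as CPM, the counts scaled to a common library size, and, where genes are compared with each other, as TPM, which is per transcript length. The first principal component of log2 CPM held 80.7% of the variance and separated the media. The second held 6.24% and set the library numbered 1 of each medium (-17.5 at DM2 and -19.2 in GM) apart from the others (6.65 to 10.9).

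The edgeR quasi-likelihood test called 6356 of 13939 genes at a Benjamini-Hochberg adjusted p under 0.05, which is 45.6%, with 3140 higher (22.5%) and 3216 lower (23.1%) at DM2. The counts of called list members below stand beside these shares of 22.5% and 23.1%. The libraries of the media did not overlap for 8833 of the tested genes (63.4%), so a lack of overlap is common here. The median log2 fold change of all tested genes was -0.02. The split was even in number but not in size. Over 2-fold, 835 genes rose and 835 fell (5.99% each), whereas over 8-fold 205 rose (1.47%) and 49 fell (0.352%). With only the 6 control libraries in the fit, 3914 of 13297 tested genes were called higher and 3735 lower. Without both libraries numbered 1, a fit chosen after seeing the data, 2394 genes were called higher and 2359 lower. A limma fit on log2(TPM + 1) moved the median of all genes to 0.13 and the split to 3336 higher and 1614 lower, so that 67.4% of its calls were higher against 49.4% here. TPM have the same total in every library and no TMM factor. Their part in the shift was not tested, and changes below are relative to the scaled counts.

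**Figure D1:**
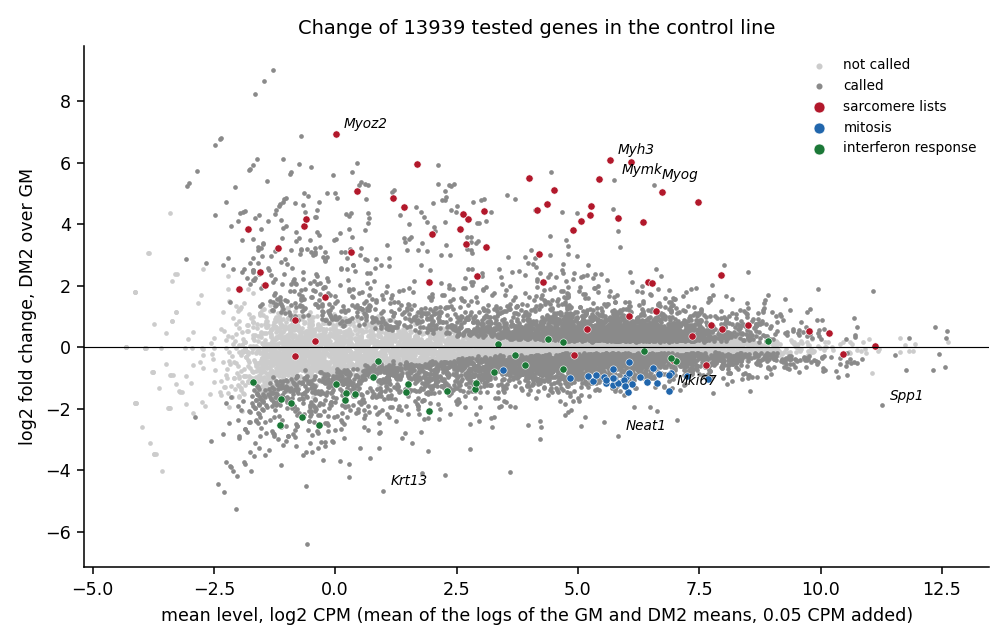
Each point is 1 of the 13939 tested genes: its level on the x axis (log2 CPM, mean of both media) and its log2 fold change at DM2 over GM on the y axis. The sarcomere genes (red) reach up to 6.94 for Myoz2, the mitosis genes (blue) lie between -0.49 and -1.45, and the 21 of the 29 interferon response genes (green) fell.

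The 4 genes that mark the change of state separated the media. Myog encodes myogenin, the factor that commits a myoblast to differentiate (ENSMUSG00000026459.5, chromosome 1, 134289989 to 134292548, plus strand, GENCODE M21 on GRCm38). Its level was 22.2, 10.1 and 13.5 CPM in GM and 493, 615 and 670.0 CPM at DM2. The groups did not overlap, as for 63.4% of tested genes, and Myog rose 39.1-fold (log2 5.29 ± 0.39, adjusted p = 3.41e-08). Mymk encodes myomaker, the membrane protein that makes myoblasts able to fuse (ENSMUSG00000009214.9, chromosome 2, 27061636 to 27072179, minus strand). It held 12.3, 5.93 and 6.11 CPM in GM and 327, 354 and 368 CPM at DM2 and rose 43.4-fold (log2 5.44 ± 0.49). Myh3, the embryonic myosin heavy chain and the first to be made in a new fibre (ENSMUSG00000020908.14, chromosome 11, 67078300 to 67102291, plus strand), held 8.21, 4.52 and 5.46 CPM in GM and 412, 396 and 437 CPM at DM2 and rose 68.9-fold (log2 6.11 ± 0.45). Mki67, a chromosome-coating protein made by dividing cells (ENSMUSG00000031004.8, chromosome 7, 135689784 to 135716361, minus strand), held 237, 158 and 179.9 CPM in GM and 81.7, 66.6 and 67.5 CPM at DM2 and fell 2.66-fold (log2 -1.41 ± 0.16, adjusted p = 1.22e-06). The GM library numbered 1 was the highest of its group for all 4 genes, the proliferation marker as well as the muscle genes.

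**Figure D2:**
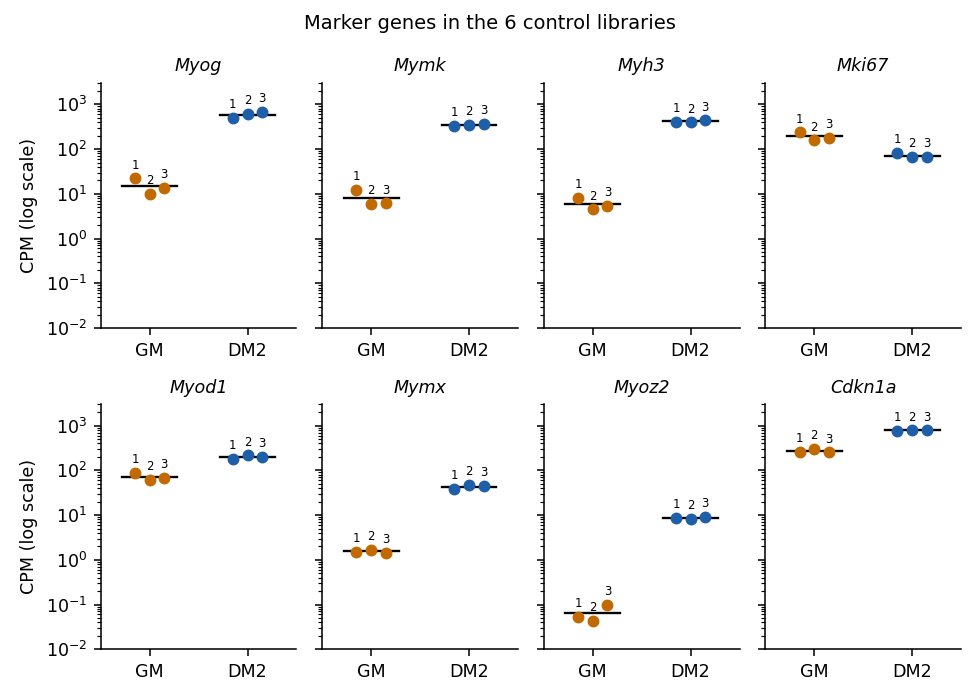
Level of 8 genes in each control library, in CPM on a log scale. Points carry the number of the library, and the bar is the mean of 3. Myog, Mymk, Myh3, Myod1, Mymx, Myoz2 and Cdkn1a were higher in every DM2 library than in every GM library, and Mki67 was lower in every DM2 library.

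The bHLH factors did not move as a block. Of 18 listed factors and repressors 16 were tested, 8 rose and 4 fell, with a median log2 fold change of 0.50 against -0.02 for all genes. The shares of 50% and 25% stand beside 22.5% of all genes that rose and 23.1% that fell. Myod1, which marks the myoblast in both states, held 89.1, 60.8 and 68.8 CPM in GM and 183, 218 and 201 CPM at DM2 and rose 2.75-fold (log2 1.46 ± 0.13). Myf6, the factor of mature fibres, received only 12 reads in GM and 5 at DM2 over 3 libraries each and was not tested. Among the repressors, Twist2, a bHLH protein of mesenchymal cells, fell 2.26-fold from 27.6 ± 4.01 CPM in GM to 12.2 ± 2.34 CPM at DM2. The repressors Id3 and Id1 were also lower on RSEM expected counts, which share out reads that fit several places. Their log2 fold changes were -0.57 ± 0.17 and -0.29 ± 0.10 (edgeR adjusted p = 0.0134 and 0.0262). On those counts the repressor Msc (1.08 ± 0.56) and the myogenic factor Myf5 (-0.16 ± 0.16) were not called. Tcf3, which encodes the E-protein partners of MyoD, fell 1.28-fold (log2 -0.36 ± 0.08). That call was absent in both limma fits on TPM (-0.16 and -0.17). The Notch targets Hes1 and Heyl rose 2.34-fold and 3.55-fold. Heyl held 21.4, 14.8 and 15.7 CPM in GM and 55.4, 56.8 and 71.7 CPM at DM2, with no overlap of the groups.

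MEF2 proteins are the DNA-binding partners of the myogenic bHLH factors. Of 21 listed MEF2 and partner factors 18 were tested, 9 rose and 1 fell, at a median of 0.43. Mef2a held 131, 114 and 124 CPM in GM and 305, 338 and 378 CPM at DM2 and rose 2.76-fold, and Mef2d rose 2.01-fold. Mef2c had a larger ratio, 25.9-fold (log2 4.70 ± 0.68), from a level near 0: it held 0.160, 0.0439 and 0.0501 CPM in GM and 3.04, 1.62 and 2.15 CPM at DM2. Tead4, which binds MCAT sites of muscle genes, held 7.09, 5.80 and 6.21 CPM in GM and 41.0, 47.5 and 53.9 CPM at DM2 and rose 7.46-fold (log2 2.90 ± 0.20). Smyd1, a methyltransferase needed to assemble myosin, rose 16.6-fold, and Rb1, the retinoblastoma protein that also works with MyoD, rose 2.27-fold. The homeobox factor Meis1 was the member that fell, 1.56-fold, from 25.7 ± 0.504 CPM in GM to 16.4 ± 1.44 CPM at DM2.

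More fusion genes rose than fell. Of 22 listed genes 17 were tested, 10 rose and 2 fell (median 0.43). Mymx, the small partner of myomaker that opens the fusion pore, held 1.49, 1.67 and 1.45 CPM in GM and 38.6, 47.4 and 44.5 CPM at DM2 and rose 28.1-fold (log2 4.81 ± 0.22, adjusted p = 3.93e-11). Cav3, the muscle caveolin, rose 38.8-fold from 0.228 ± 0.114 CPM in GM to 9.07 ± 1.24 CPM at DM2. The adhesion proteins that bring myoblasts together were already present in GM and rose less: M-cadherin Cdh15 3.02-fold, N-cadherin Cdh2 1.74-fold and the junctional adhesion molecule Jam3 1.85-fold. Cdh15 held 157, 96.0 and 109 CPM in GM and 384, 353 and 357 CPM at DM2. The formin Fhod3 rose 1.56-fold.

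The contractile lists had the highest medians of the 31 lists. Of 16 tested myosin and myosin-binding genes 14 rose and 1 fell (21 listed, median 3.55). The limma fit on log2(TPM + 1), whose filter tests fewer low genes, called 9 higher. All 14 rose over 2-fold, a size that 5.99% of all genes reached upward. Among the heavy chains, per transcript length, the embryonic Myh3 was at 1.28 TPM in GM and 99.4 TPM at DM2, and the perinatal Myh8 at 0.0333 TPM in GM and 0.580 TPM at DM2. Myh1, a fast adult chain, held 2.72, 1.54 and 1.05 CPM in GM and 41.5, 33.5 and 40.2 CPM at DM2 and rose 21.9-fold, and the slow chain Myh7 held 2.24, 1.62 and 1.55 CPM in GM and 7.15, 7.61 and 8.85 CPM at DM2 and rose 4.37-fold. The light chains rose in parallel: Mylpf, the fast regulatory chain, 33.1-fold to 574, 580.4 and 674 CPM, Myl1 25.1-fold, and the embryonic Myl4 24.0-fold. Mybph, a myosin-binding protein, held 9.33, 4.35 and 5.76 CPM in GM and 291, 285 and 289.7 CPM at DM2 and rose 45.0-fold (log2 5.49 ± 0.42). The non-muscle chain Myh10 fell 1.35-fold (log2 -0.43 ± 0.11), and the non-muscle chain Myh9 was not called (log2 -0.22 ± 0.10, adjusted p = 0.0738), but was called lower with length and GC offsets (-0.53). The heavy chain genes resemble each other, and only reads that map to 1 place were counted, so reads from stretches they share are missing from these values.

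Of 22 tested thin filament genes (23 listed) 17 rose and 1 fell, with a median of 3.55. Actc1, cardiac alpha-actin, which developing skeletal muscle makes first, held 9.44, 8.04 and 7.71 CPM in GM and 457, 574 and 605 CPM at DM2 and rose 65.0-fold (log2 6.02 ± 0.36). Acta1, the adult skeletal actin, rose 26.6-fold to a DM2 level of 869, 892 and 971 CPM. The troponins, which carry calcium control, included Tnnc2 (45.8-fold), Tnni2 (22.1-fold) and the slow Tnni1 (18.5-fold). Lmod2, which nucleates and lengthens actin filaments, held 0.480, 0.351 and 0.3004 CPM in GM and 22.5, 24.0 and 24.97 CPM at DM2 and rose 62.6-fold. Neb, the ruler along the filament, rose 14.4-fold, and Xirp1, an actin-binding protein of forming junctions, rose as well (log2 4.32 ± 0.26). Tpm3, the tropomyosin gene shared with non-muscle cells, was the member that fell, 1.51-fold, from 244 ± 11.4 CPM in GM to 161 ± 7.08 CPM at DM2.

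In the Z-disc, M-band and titin list 20 of 22 tested genes rose and 0 fell (24 listed, median 2.57). Its largest ratio was that of Myoz2, a Z-disc protein that tethers calcineurin, which held 0.0533, 0.0439 and 0.1001 CPM in GM and 8.70, 8.35 and 9.23 CPM at DM2 and rose 123-fold (log2 6.94 ± 0.53, adjusted p = 1.14e-08). The M-band protein Myom2 rose 34.7-fold to 142, 125 and 131 CPM, and titin, Ttn, 14.2-fold. Titin held 12.3, 6.81 and 4.81 CPM in GM and 134, 102 and 102 CPM at DM2, and the library numbered 1 was the highest of each medium. The 2 muscle alpha-actinins differed in where they started: Actn3 held 54.2, 38.0 and 41.8 CPM in GM and 202, 182 and 189 CPM at DM2 (4.28-fold), and Actn2 held 0.107, 0.264 and 0 CPM in GM and 1.93, 2.27 and 3.21 CPM at DM2 (18.2-fold). Ankrd2, a stretch-response protein, rose 33.7-fold. Desmin, Des, the intermediate filament that links Z-discs and is a marker of the myoblast itself, was at 459 TPM in GM and 660.3 TPM at DM2 and rose 1.38-fold. Tcap, the telethonin that caps titin, stayed below 1 CPM in all 6 libraries and was not called (log2 0.88 ± 0.46, adjusted p = 0.132).

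Proteins that fold and place myosin followed. Of 20 tested assembly chaperones and Kelch proteins 16 rose and 1 fell (21 listed, median 2.24). Unc45b, the myosin chaperone, held 1.23, 0.615 and 0.651 CPM in GM and 26.1, 32.5 and 34.4 CPM at DM2 and rose 37.7-fold (log2 5.24 ± 0.39). The thin filament stabilisers Klhl40 and Klhl41 rose 21.9-fold and 22.4-fold. Of the muscle ubiquitin ligases, Trim63 (MuRF1) rose 23.7-fold and Trim54 (MuRF3) 13.8-fold. Hspb6, a small heat shock protein, went the other way: it held 39.2, 40.9 and 39.5 CPM in GM and 17.6, 16.8 and 12.9 CPM at DM2 and fell 2.53-fold (log2 -1.34 ± 0.14).

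**Figure D3:**
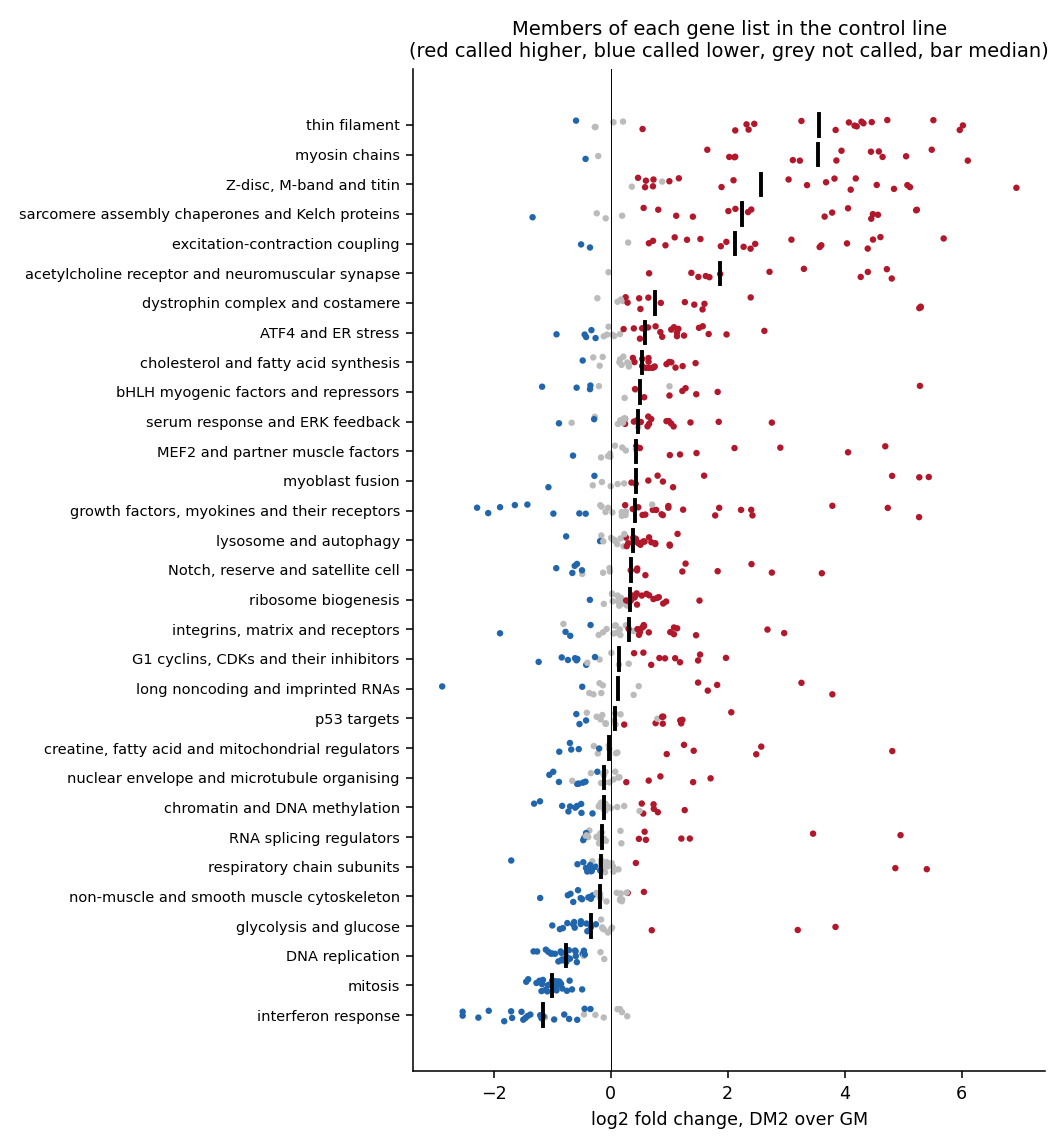
Each point is 1 tested gene of a list, placed by its log2 fold change at DM2 over GM (x axis), and the black bar is the median of the list. Red points were called higher, blue points lower and grey points not called. The lists run from the thin filament and myosin lists at a median of 3.55 down to the interferon response list at -1.15. Vertical scatter within a row has no meaning.

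Genes that couple the nerve signal and the membrane potential to contraction rose with the filaments. In the excitation-contraction coupling list 19 of 22 tested genes rose and 2 fell (24 listed, median 2.12). Casq2, a calcium-binding protein of the sarcoplasmic reticulum, held 3.52, 2.42 and 3.10 CPM in GM and 149, 150.5 and 166 CPM at DM2 and rose 51.8-fold (log2 5.69 ± 0.42). The voltage sensor Cacna1s rose 24.5-fold, the release channel Ryr1 16.4-fold, their adaptor Stac3 12.1-fold, and the reticulum glycoprotein Srl 22.4-fold. The fast calcium pump Atp2a1 rose 21.0-fold from 5.54 ± 2.05 CPM in GM to 115 ± 4.67 CPM at DM2, while the pump of all cells, Atp2a2, which was at 57.5 TPM in GM and 106 TPM at DM2, rose 1.57-fold. Speg, a kinase of the triad, fell 1.28-fold (log2 -0.36 ± 0.10), and Asph, whose gene also encodes junctin, fell 1.42-fold, a call absent in the limma fit on log2(TPM + 0.1) (-0.38).

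At the acetylcholine receptor and its synapse 12 of 13 tested genes rose and 0 fell (14 listed, median 1.87). The receptor's alpha subunit Chrna1 was already high and held 352, 215 and 243 CPM in GM and 938, 840.4 and 831 CPM at DM2, a rise of 3.22-fold. The fetal gamma subunit Chrng held 10.99, 7.77 and 7.61 CPM in GM and 88.4, 83.0 and 87.9 CPM at DM2 and rose 9.87-fold (log2 3.30 ± 0.19), and the delta subunit Chrnd rose 6.56-fold. The adult epsilon subunit Chrne received 2 reads in GM and 0 at DM2 and was not tested. Of the proteins that cluster the receptor, Dok7 rose 21.1-fold, Lrp4 3.66-fold, Musk 2.83-fold and Rapsn 2.60-fold. Erbb3, a neuregulin receptor, held 1.65, 0.703 and 0.3004 CPM in GM and 19.9, 25.6 and 27.8 CPM at DM2 and rose 27.98-fold.

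The dystrophin complex ties the filaments to the matrix. Of 18 tested genes 14 rose and 0 fell (19 listed, median 0.75). The sarcoglycan Sgca rose 2.41-fold, and Itga7, the laminin receptor of muscle, rose 2.97-fold from 168 ± 23.8 CPM in GM to 499 ± 13.1 CPM at DM2. Itgb1bp2 (melusin) and Pgm5, a protein of adhesion plaques, both rose 39.4-fold. Itgb1bp2 held 0.907, 0.659 and 0.951 CPM in GM and 29.1, 32.7 and 37.2 CPM at DM2. Dystrophin itself, Dmd, received 1 read in GM and 3 at DM2 over 3 libraries each and was not tested.

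Myog and 3 muscle genes with different protein roles are shown by the 250 bases before their RefSeq start (build GRCm38.p6), because the muscle lists moved together and E-box and MEF2 letters were searched in these windows. They lie at chr1:134289754-134290003 (plus strand, Myog), chr2:69669870-69670119 (plus, Klhl41), chr11:5803797-5804046 (minus, the muscle phosphoglycerate mutase Pgam2) and chr11:67237562-67237811 (plus, the fast myosin Myh4). Capitals mark any CANNTG in Myog, and in the other windows, on either strand, the E-boxes CAGCTG (bound by MyoD and myogenin) and CAGGTG (bound by other bHLH and zinc finger factors too), the MCAT core CATTCC, which TEAD factors bind, and the MEF2 consensus.
Myog: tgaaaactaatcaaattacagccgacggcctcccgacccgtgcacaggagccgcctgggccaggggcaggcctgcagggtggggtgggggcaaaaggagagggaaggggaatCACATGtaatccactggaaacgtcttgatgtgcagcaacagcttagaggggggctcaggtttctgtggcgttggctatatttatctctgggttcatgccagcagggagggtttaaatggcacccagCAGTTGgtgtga
Klhl41: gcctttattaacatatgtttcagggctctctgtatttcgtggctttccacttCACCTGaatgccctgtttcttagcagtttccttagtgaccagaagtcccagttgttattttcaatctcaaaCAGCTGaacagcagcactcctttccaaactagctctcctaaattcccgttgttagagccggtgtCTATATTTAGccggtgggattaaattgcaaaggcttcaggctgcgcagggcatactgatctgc
Pgam2: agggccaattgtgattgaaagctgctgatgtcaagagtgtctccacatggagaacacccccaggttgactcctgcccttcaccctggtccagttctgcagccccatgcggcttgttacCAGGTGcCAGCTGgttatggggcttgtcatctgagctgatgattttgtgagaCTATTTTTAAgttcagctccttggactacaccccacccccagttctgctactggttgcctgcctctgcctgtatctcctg
Myh4: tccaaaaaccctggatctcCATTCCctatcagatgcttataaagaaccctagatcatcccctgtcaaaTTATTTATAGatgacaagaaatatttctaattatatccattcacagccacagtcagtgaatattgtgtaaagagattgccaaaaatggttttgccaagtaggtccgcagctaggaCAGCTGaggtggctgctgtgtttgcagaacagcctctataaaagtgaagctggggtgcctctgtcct
The Myog window held 2 CANNTG and no exact match to the narrower motifs. Its letters ctatatttat differ from the MEF2 consensus used here only in the last base, and such near matches were not counted. Klhl41 and Pgam2 each held 1 CAGCTG, 1 CAGGTG and 1 MEF2 match, and Myh4 1 CAGCTG, 1 MEF2 match and 1 CATTCC. All 3 genes rose: Klhl41 22.4-fold, Pgam2 14.4-fold and Myh4, which is at the floor of detection in GM (0.0533, 0.0878 and 0 CPM in GM and 1.16, 0.603 and 0.622 CPM at DM2), 14.5-fold. Myh4 was chosen after its values were seen. Klhl41, Pgam2 and Myh4 are examples picked by hand and do not stand for the muscle lists, whose shares follow.

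Over all RefSeq windows of that length (32841, for 27018 genes) 13.0% held CAGCTG, and over the windows of tested genes (12965 windows of 10130 matched genes) 12.6%. The windows of genes that rose over 8-fold (195 windows, 152 of 205 genes matched) held it in 29.2%, those of the 3 sarcomere lists (66 windows, 54 of 68 genes matched) in 30.3%, and those of genes that fell over 2-fold (745 windows, 575 of 835 genes) in 14.5%. The MEF2 consensus was in 1.61% of windows of tested genes, 10.3% of those rising over 8-fold and 15.2% of the sarcomere lists. CATTCC, the MCAT core, was in 10.8%, 17.9% and 28.8% in the same order. Any CANNTG was in 57.3%, 77.9% and 83.3%, and it includes the 2 narrower E-boxes. These shares are descriptions of letters in a window with no test, and a gene with several starts counts with each.

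Mitosis and DNA replication genes fell, and not one of those tested rose. All 30 mitosis genes were tested and all 30 fell, at a median of -0.998, beside 23.1% of all genes that fell. Ccnb2, a mitotic cyclin, held 128, 84.6 and 112 CPM in GM and 41.0, 37.1 and 41.0 CPM at DM2 and fell 2.73-fold (log2 -1.45 ± 0.18). Birc5, the survivin of the spindle midzone, fell 2.41-fold, the kinesin Cenpe 2.33-fold, the anaphase activator Cdc20 2.173-fold and topoisomerase Top2a 2.03-fold. Cdk1 held 191, 131 and 167 CPM in GM and 92.1, 86.1 and 92.2 CPM at DM2 and fell 1.804-fold, a call absent in both limma fits on TPM (-0.66 in both). The levels at DM2 were lower but not at 0: Top2a was still at 144, 135 and 153 CPM. The limma fit on log2(TPM + 0.1) called 17 of the list lower, and the fit without both libraries numbered 1 25.

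Of the 29 DNA replication genes, all tested, 26 fell and 0 rose (median -0.76). Tk1, the thymidine kinase of S phase, held 89.7, 70.0 and 86.1 CPM in GM and 29.7, 33.5 and 35.1 CPM at DM2 and fell 2.498-fold (log2 -1.32 ± 0.10). Dut, which removes dUTP, fell 2.39-fold, the helicase partner Gins2 2.16-fold and the helicase subunit Mcm5 1.94-fold. Pcna, the sliding clamp, held 89.8, 74.0 and 80.3 CPM in GM and 54.6, 59.1 and 63.4 CPM at DM2, lower in every DM2 library, and was not called (log2 -0.46 ± 0.25, adjusted p = 0.138). The fit of only the control libraries called it (-0.45). The limma fit on log2(TPM + 0.1) called 17 of the list lower, and the fit without both libraries numbered 1 23.

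The genes that control entry into S phase went both ways. Of 23 tested G1 cyclins, CDKs and inhibitors (25 listed) 10 rose and 8 fell, at a median of 0.14. Both limma fits on TPM called 2 lower, and the fit without both libraries numbered 1 called 4. Cdkn1a, which encodes the inhibitor p21, held 256, 303 and 254 CPM in GM and 774, 787 and 784 CPM at DM2 and rose 2.88-fold (log2 1.53 ± 0.09, adjusted p = 4.50e-10). The inhibitor p57, Cdkn1c, rose 2.81-fold from 3.04 ± 0.331 CPM in GM to 8.54 ± 2.10 CPM at DM2. Of the other inhibitors, these fell: Cdkn1b (p27) 1.34-fold, Cdkn2c (p18) 1.53-fold and Cdkn2d (p19) 1.79-fold. Cdkn2d held 49.0, 38.3 and 40.2 CPM in GM and 24.2, 22.4 and 24.6 CPM at DM2, with no overlap. The Cdkn1b and Cdkn2c calls were absent in both limma fits on TPM (-0.26 in both for Cdkn1b, -0.40 and -0.41 for Cdkn2c).

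The D cyclins went opposite ways. Ccnd1, which serum induces, held 211, 249.9 and 214 CPM in GM and 83.6, 104 and 99.1 CPM at DM2 and fell 2.35-fold (log2 -1.23 ± 0.12). Ccnd3, the D cyclin that stays on in muscle, held 132, 104 and 112 CPM in GM and 238, 252 and 256 CPM at DM2 and rose 2.15-fold (log2 1.10 ± 0.09), and Ccnd2 rose 1.90-fold. Cdk2 rose 1.78-fold. Of the pocket proteins that hold E2F, Rb1 rose 2.27-fold and Rbl2 (p130) 1.32-fold, while Rbl1 (p107) fell 1.501-fold (log2 -0.59 ± 0.16). The Rbl1 call was absent in both limma fits on TPM (-0.38 and -0.41) and without both libraries numbered 1 (-0.50). E2f2 held 17.3, 9.84 and 14.97 CPM in GM and 51.4, 54.3 and 58.5 CPM at DM2 and rose 3.92-fold (log2 1.97 ± 0.19). Myc, which growth factors induce, held 37.6, 44.8 and 38.7 CPM in GM and 57.9, 57.4 and 63.1 CPM at DM2 and rose 1.47-fold.

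The 2 mitotic genes below are shown for the CCAAT box and the CHR element (TTTGAA) through which cell cycle promoters are repressed, in the 250 bases before the start. They lie at chr9:70421555-70421804 (minus strand, Ccnb2) and chr4:118437344-118437593 (minus, Cdc20). Capitals mark both motifs on either strand.
Ccnb2: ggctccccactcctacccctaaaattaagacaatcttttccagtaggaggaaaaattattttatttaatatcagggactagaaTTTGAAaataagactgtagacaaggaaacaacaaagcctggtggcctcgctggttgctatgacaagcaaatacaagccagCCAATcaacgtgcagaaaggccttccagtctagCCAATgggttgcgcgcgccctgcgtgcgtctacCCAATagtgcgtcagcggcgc
Cdc20: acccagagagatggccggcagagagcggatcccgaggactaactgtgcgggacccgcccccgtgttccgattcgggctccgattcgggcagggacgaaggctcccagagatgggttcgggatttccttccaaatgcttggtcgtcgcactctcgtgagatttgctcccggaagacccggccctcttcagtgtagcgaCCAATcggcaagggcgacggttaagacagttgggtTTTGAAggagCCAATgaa
Ccnb2 held 3 CCAAT and 1 CHR, and Cdc20 2 CCAAT and 1 CHR. Both genes are examples picked by hand. CCAAT was in 73.1% of the windows of the mitosis list (26 windows, 25 of 30 genes matched) and 35.4% of those of tested genes, and TTTGAA in 30.8% and 10.5%. The CCAAT share was not particular to genes that fell. It was 73.9% in the cholesterol and fatty acid synthesis list (23 windows) and 72.4% in the ATF4 and ER stress list (29 windows). More members of these lists rose than fell. Their TTTGAA shares were 8.70% and 3.45%. The E2F letters TTTNGCGC were in 17.2% of windows of the replication list (29 windows, 24 of 29 genes matched) and 1.96% of those of tested genes.

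Chromatin genes went both ways. Of 27 chromatin genes, all tested, 6 rose and 10 fell (median -0.12). These are 22.2% and 37.0%, beside 22.5% of all genes that rose and 23.1% that fell. Hmgb2, abundant in dividing cells, held 34.7, 21.0 and 26.5 CPM in GM and 11.5, 12.2 and 11.7 CPM at DM2 and fell 2.31-fold, Hmga1 fell 2.48-fold, and the maintenance methyltransferase Dnmt1 1.52-fold. Linker histone H1f0, usually a histone of resting cells, also fell, 1.78-fold, from 377 ± 21.6 CPM in GM to 212 ± 1.79 CPM at DM2. The 2 catalytic subunits of Polycomb moved apart: Ezh2 fell 1.42-fold, a call absent in both limma fits on TPM (-0.42 in both), and Ezh1 rose 1.47-fold. Hdac4, a class II deacetylase that binds MEF2, rose 1.66-fold.

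Of 25 tested envelope and microtubule-organising genes (27 listed) 5 rose and 8 fell (median -0.12). These are 20% and 32%, beside 22.5% of all genes that rose and 23.1% that fell. Lmnb1, a lamin of dividing cells, held 214, 144 and 182 CPM in GM and 80.3, 84.5 and 96.3 CPM at DM2 and fell 2.07-fold (log2 -1.05 ± 0.18). Nrm (nurim) fell 1.85-fold. In a myotube the centrosome's role passes to the nuclear surface. Of the proteins of that surface, Syne1 (nesprin-1) rose 2.65-fold and its partner Akap6 3.27-fold, while Syne2 (nesprin-2) fell 1.98-fold. Akap6 held 12.4, 8.87 and 10.3 CPM in GM and 33.1, 34.4 and 35.4 CPM at DM2. The beta-tubulin Tubb6 rose 1.801-fold.

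Glycolysis fell for most members: of 23 tested genes (24 listed) 3 rose and 13 fell (median -0.34), and both limma fits on TPM called 8 lower. Ldha, which makes lactate, held 999, 983 and 1007 CPM in GM and 574, 585 and 534 CPM at DM2 and fell 1.76-fold (log2 -0.82 ± 0.09). The phosphofructokinase Pfkl, the liver form, fell 1.83-fold, the glucose transporter Slc2a1 1.53-fold and Ldhb 2.00-fold. Those that rose were hexokinase Hk2 (1.62-fold) and the muscle forms Pgam2 (14.4-fold) and Pygm, the glycogen phosphorylase of muscle, which held 2.83, 1.36 and 2.25 CPM in GM and 19.96, 18.8 and 19.7 CPM at DM2 and rose 9.17-fold (log2 3.20 ± 0.31). Pgk1 fell 1.67-fold, but it had only 40.1 ± 1.98 CPM in GM to 23.9 ± 1.67 CPM at DM2 beside 652 TPM in GM and 451 TPM at DM2. Reads that fit several places are not in the counts. On the RSEM expected counts, which share such reads out, its log2 fold change was -0.69 ± 0.10. Not every muscle form of the list rose. Pfkm, Eno3 and Slc2a4 were not among the members that rose. On the same RSEM counts their log2 fold changes were -0.04 ± 0.12, -0.25 ± 0.08 and -0.08 ± 0.46.

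Creatine kinases and the creatine transporter were in a list that went both ways. Ckm, muscle creatine kinase, held 2.67, 2.503 and 2.15 CPM in GM and 57.5, 72.7 and 76.3 CPM at DM2 and rose 28.1-fold (log2 4.82 ± 0.31), the brain form Ckb rose 2.67-fold, and the creatine transporter Slc6a8 2.38-fold. In the list of creatine, fatty acid and mitochondrial regulators 6 of 17 tested genes rose and 5 fell (23 listed, median -0.03). Ppargc1a, the coactivator of mitochondrial biogenesis, rose 5.96-fold from 0.417 ± 0.174 CPM in GM to 2.47 ± 0.564 CPM at DM2, and the fatty acid carrier Fabp3 5.61-fold. The fatty acid oxidation enzyme Acadm fell 1.84-fold, and Pdk4, a brake on pyruvate oxidation, 1.62-fold.

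Of 34 respiratory chain subunits, all tested, 3 rose and 11 fell, 20 were not called, and the median was -0.16. Both limma fits on TPM called 4 lower, the fit of only the control libraries 18, and the fit without both libraries numbered 1 6. The large ratios belonged to the muscle forms of cytochrome oxidase, from levels near 0: Cox6a2 held 0.267, 0.176 and 0.0501 CPM in GM and 4.64, 4.41 and 5.74 CPM at DM2 (29.2-fold) and Cox8b 0.0533, 0 and 0.0501 CPM in GM and 1.69, 1.76 and 1.48 CPM at DM2 (42.4-fold). Cox6a1, the general counterpart of Cox6a2, held 241, 238 and 217 CPM in GM and 168, 167 and 168 CPM at DM2 and fell 1.39-fold. Cox8a, the general counterpart of Cox8b, was not called on the RSEM expected counts (log2 -0.06 ± 0.13, edgeR adjusted p = 0.742). Per transcript length Cox6a1 was at 604 TPM in GM and 486 TPM at DM2, against 0.223 TPM in GM and 11.7 TPM at DM2 for Cox6a2. Not every muscle form rose: Cox7a1 fell 3.25-fold from 0.831 ± 0.231 CPM in GM to 0.253 ± 0.0962 CPM at DM2. Ndufa4 fell 1.48-fold.

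**Figure D4:**
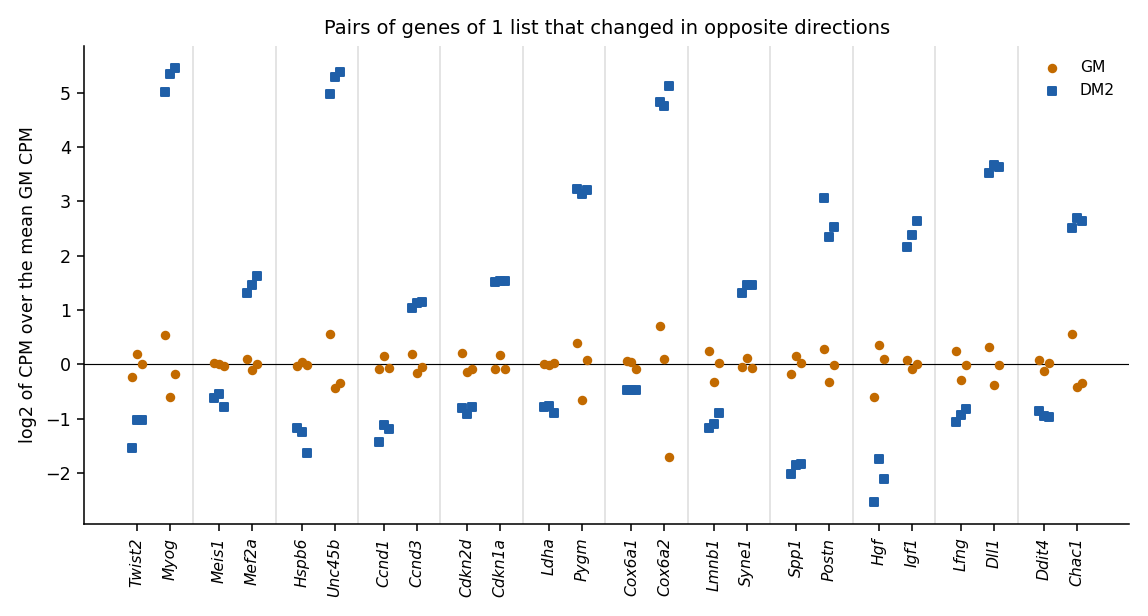
Pairs of genes from 1 list that changed in opposite directions, picked for this after their values were seen. Each point is 1 library, GM (circles) or DM2 (squares), as the log2 of its CPM over the mean GM CPM of the gene. All DM2 libraries of Twist2, Ccnd1, Cdkn2d, Ldha, Cox6a1 and Lmnb1 lie below 0, and those of Myog, Ccnd3, Cdkn1a, Pygm, Cox6a2 and Syne1 above it.

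Most targets and feedback inhibitors of the ERK pathway rose. Of 26 serum response genes, all tested, 16 rose and 2 fell (median 0.46). Spry1, a feedback inhibitor of receptor signalling, held 5.28, 5.71 and 6.91 CPM in GM and 43.4, 39.6 and 38.0 CPM at DM2 and rose 6.75-fold (log2 2.75 ± 0.17). Spry4 rose 2.57-fold, the phosphatase Dusp1 3.60-fold, Egr2 1.99-fold, and the immediate early factors Egr1 and Fos 1.61-fold and 2.04-fold. Egr1 held 112, 122 and 119 CPM in GM and 180.1, 178 and 212 CPM at DM2. Hbegf, an EGF receptor ligand, rose 2.11-fold. Fosl1, an AP-1 subunit of dividing myoblasts, fell 1.85-fold from 25.4 ± 2.88 CPM in GM to 13.7 ± 0.502 CPM at DM2.

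More ribosome biogenesis genes rose than fell. Of 30 genes, all tested, 17 rose and 1 fell (median 0.33). The list's largest change was Rrp12, a factor of pre-ribosome export, which held 13.1, 11.1 and 11.3 CPM in GM and 31.1, 31.2 and 39.2 CPM at DM2 and rose 2.86-fold. Rrs1 rose 1.93-fold and the nucleolar GTPase Gnl3 1.86-fold, a gene otherwise known from stem and dividing cells. Nucleolin, Ncl, was not called (log2 -0.12 ± 0.09, adjusted p = 0.284), but was called lower with length and GC offsets (-0.28).

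Of 23 tested splicing regulators (25 listed) 7 rose and 3 fell (median -0.16), beside 22.5% of all genes that rose. The count of lower calls was 0 without both libraries numbered 1, 5 without the GM library numbered 2 and 8 with only the control libraries. Those that fell were Ptbp2 (1.37-fold), Srsf7 (1.39-fold) and Hnrnpa2b1 (1.34-fold), the last chosen after its values were seen. Their calls were absent in both limma fits on TPM and without both libraries numbered 1, and that of Ptbp2 also without the GM library numbered 3 (-0.43) or the DM2 library numbered 1 (-0.42). Rbm24 held 3.09, 1.45 and 1.70 CPM in GM and 52.9, 64.6 and 73.9 CPM at DM2 and rose 31.04-fold (log2 4.96 ± 0.34). Rbfox1 rose 11.01-fold from 0.140 ± 0.122 CPM in GM to 1.67 ± 0.624 CPM at DM2, Rbm38 2.55-fold, and Rbm20, the titin splicing factor, 2.31-fold. Celf2 rose 1.52-fold, Qk 1.49-fold and Rbfox2 1.40-fold.

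More genes of the non-muscle cytoskeleton fell than rose. Of 25 tested genes (26 listed) 2 rose and 11 fell (median -0.19). Both limma fits on TPM called 5 higher and 6 lower, and leaving out the DM2 library numbered 2 left 7 lower. Vim, vimentin of mesenchymal cells, held 6193, 7121 and 6417 CPM in GM and 3954, 4053 and 3850 CPM at DM2 and fell 1.66-fold (log2 -0.73 ± 0.09). Actb, cytoplasmic actin, fell 1.56-fold, the non-muscle cofilin Cfl1 1.48-fold, the smooth muscle calponin Cnn1 2.31-fold and the smooth muscle actin Actg2 1.61-fold. Smooth muscle genes did not all fall. Before scaling, Acta2 had 341247 reads in GM and 427642 at DM2, and Tagln 44848 and 52361. In the smooth muscle marker list below, 3 of 8 tested genes rose and 1 fell. Nestin, Nes, an intermediate filament of myoblasts and young myotubes, rose 1.48-fold. The Actg2 call was absent in both limma fits on TPM (-0.53 in both).

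Matrix genes went both ways. Of 31 tested matrix genes and receptors (34 listed) 15 rose and 4 fell (median 0.30). Spp1, osteopontin, held 4230, 5291 and 4840 CPM in GM and 1187, 1331 and 1343 CPM at DM2, a fall of 3.72-fold (log2 -1.90 ± 0.14). Postn, periostin, held 123, 81.3 and 100.1 CPM in GM and 849, 513 and 588 CPM at DM2 and rose 6.41-fold, and the proteoglycan Dcn rose 7.81-fold from 11.3 ± 3.64 CPM in GM to 88.5 ± 26.9 CPM at DM2. In both, the libraries numbered 1 stood apart: at DM2 the highest for Postn and the lowest for Dcn. Col1a1 rose 2.20-fold and Sparc 1.45-fold, while the cross-linking enzyme Lox fell 1.71-fold. Of the integrins, Itga11 rose 2.75-fold and Itga6 2.12-fold.

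Insulin-like growth factors and several myokines rose. Of 38 tested growth factors, myokines and receptors (40 listed) 20 rose and 8 fell (median 0.42). Igf2, which drives differentiation in an autocrine loop, held 21.3, 11.4 and 13.2 CPM in GM and 166, 245 and 222 CPM at DM2 and rose 13.8-fold (log2 3.79 ± 0.31). Igf1 rose 5.29-fold, and the binding proteins Igfbp3 and Igfbp5 5.36-fold and 2.36-fold. Fgf21, a stress-induced hormone, held 1.23, 0.703 and 0.451 CPM in GM and 23.6, 29.5 and 38.5 CPM at DM2 and rose 38.7-fold, and Fndc5, the precursor of irisin, rose 26.7-fold. Fst, follistatin, which binds myostatin, rose 3.45-fold, while myostatin itself, Mstn, received 0 reads in all 6 libraries. Hgf, the activator of satellite cells, held 37.8, 73.1 and 61.1 CPM in GM and 9.86, 17.1 and 13.2 CPM at DM2 and fell 4.28-fold (log2 -2.10 ± 0.29), and the peptide Apln fell 4.88-fold.

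Of 19 tested Notch, reserve and satellite cell genes (24 listed) 10 rose and 5 fell (median 0.34). The ligand Dll1 held 7.57, 4.66 and 6.06 CPM in GM and 69.5, 76.9 and 75.7 CPM at DM2 and rose 12.2-fold (log2 3.61 ± 0.23), and Sox8 rose 5.30-fold. Lfng, which modifies Notch, fell 1.91-fold, and Cd34, a quiescence marker, 1.58-fold, a call absent in the limma fit on log2(TPM + 0.1) (-0.50). Pax7, the satellite cell factor, was low and not called (4.96, 3.29 and 3.60 CPM in GM and 3.53, 2.64 and 2.25 CPM at DM2, adjusted p = 0.0941). It was called lower without the DM2 library numbered 1 (-0.68) and with length and GC offsets (-0.74).

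Most genes of sterol synthesis rose. Of 28 cholesterol and fatty acid synthesis genes, all tested, 17 rose and 1 fell (median 0.54). Insig1, the sterol sensor's anchor, held 69.4, 47.7 and 67.9 CPM in GM and 180.2, 177 and 148 CPM at DM2 and rose 2.73-fold (log2 1.45 ± 0.12). Cyp51 rose 2.15-fold and Hsd17b7 2.05-fold. Pmvk, a kinase of the mevalonate path, was the member that fell, 1.40-fold, a call absent in the limma fit on log2(TPM + 0.1) (-0.30).

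Most interferon response genes fell. Of 29 tested genes (31 listed) 21 fell and 0 rose, and the median of -1.15 was the lowest of the 31 lists. The fit of only the control libraries called 2 members higher, and the fit without both libraries numbered 1 called 21 lower. Ifit1 held 5.07, 12.2 and 5.86 CPM in GM and 2.22, 1.44 and 1.82 CPM at DM2 and fell 4.25-fold (log2 -2.09 ± 0.37). Isg15 held 6.72, 9.92 and 7.26 CPM in GM and 3.09, 3.11 and 2.73 CPM at DM2 and fell 2.68-fold, the RNA sensor Ifih1 fell 2.22-fold, Oasl2 2.60-fold and the transcription factor Irf7 2.82-fold. In GM the library numbered 2 was the highest of its group for Ifit1, Isg15, Ifih1, Oasl2 and Irf7. B2m, a subunit of MHC class I, was not called (log2 0.19 ± 0.10, adjusted p = 0.13), but was called higher with length and GC offsets (0.54) and in both limma fits on TPM (0.38 in both). The Ifit1 window at chr19:34640639-34640888 (plus strand) is shown for the interferon-stimulated response element (GAAA, then 2 bases of any kind, then GAAA; capitals, either strand).
Ifit1: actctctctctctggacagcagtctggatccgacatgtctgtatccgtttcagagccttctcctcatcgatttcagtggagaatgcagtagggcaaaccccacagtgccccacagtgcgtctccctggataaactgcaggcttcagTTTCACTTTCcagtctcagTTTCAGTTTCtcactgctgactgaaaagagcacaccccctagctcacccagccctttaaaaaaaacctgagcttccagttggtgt
It held 2 matches. These letters were in 37.9% of the windows of the list (29 windows, 24 of 31 genes matched) and 2.55% of those of tested genes.

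More ATF4 and ER stress genes rose than fell. Of 30 ATF4 and ER stress genes, all tested, 19 rose and 5 fell (median 0.59). Atf4 held 381, 319.8 and 331 CPM in GM and 718, 757 and 826 CPM at DM2 and rose 2.23-fold (log2 1.16 ± 0.09). Its targets Chac1, which degrades glutathione, and Slc7a5, an amino acid carrier, rose 6.18-fold and 3.19-fold, the mitochondrial folate enzyme Mthfd2 2.38-fold, the pseudokinase Trib3 2.85-fold and Ddit3 (CHOP) 1.800-fold. Chac1 held 10.4, 5.27 and 5.56 CPM in GM and 40.2, 45.9 and 44.0 CPM at DM2. Ddit4 (REDD1), which restrains mTORC1, fell 1.90-fold, and the folding enzyme Pdia6 1.36-fold. The Pdia6 call was absent in both limma fits on TPM (-0.28 in both).

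Of 24 p53 target genes, all tested, 9 rose and 3 fell (median 0.08). The count of lower calls was 6 with DESeq2 and with only the control libraries, and 7 with length and GC offsets. Pmaip1 (NOXA), a death-promoting BH3 protein, held 6.35, 4.35 and 5.06 CPM in GM and 23.7, 16.3 and 25.5 CPM at DM2 and rose 4.17-fold. Eda2r rose 2.30-fold, and the growth arrest genes Gadd45a and Gadd45b 2.34-fold and 2.28-fold. Ccng1 fell 1.505-fold. Lysosome and autophagy genes were higher for most members, 20 of 32 tested, with 2 lower (33 listed, median 0.39). Without both libraries numbered 1, 13 were called higher. The hydrolases Neu1 and Hexa rose 2.21-fold and 2.01-fold, and Hexa held 188, 207 and 189 CPM in GM and 423, 408 and 342 CPM at DM2. The autophagy receptor Sqstm1 (p62) rose 1.31-fold, whereas the mitophagy receptor Bnip3 fell 1.70-fold.

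Of 14 tested long noncoding and imprinted RNAs (23 listed) 5 rose and 2 fell (median 0.13). H19, the imprinted partner of Igf2, held 1608, 826 and 1023 CPM in GM and 4068, 4278 and 3847 CPM at DM2 and rose 3.53-fold (log2 1.82 ± 0.18), and Mest rose 9.59-fold from 18.9 ± 1.94 CPM in GM to 181 ± 44.6 CPM at DM2. Meg3 received 0 reads in all 6 libraries. Neat1, the scaffold RNA of paraspeckles, varied widely within a group: it held 188, 52.1 and 222 CPM in GM and 31.4, 20.3 and 10.8 CPM at DM2. The groups did not overlap, as for 63.4% of tested genes, and Neat1 fell 7.38-fold (log2 -2.88 ± 0.70, adjusted p = 0.00352). The fit of only the 6 control libraries with the replicate number as a block gave -2.72 and an adjusted p of 0.108.

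Some genes outside the lists changed as much as those within. Ctrb1, a chymotrypsinogen better known from pancreas, held 0.693, 0.395 and 0.501 CPM in GM and 31.4, 32.1 and 32.8 CPM at DM2 and rose 60.8-fold (log2 5.93 ± 0.27, adjusted p = 3.93e-11). Filip1, a filamin-binding protein, rose 52.5-fold, Ctxn3 48.9-fold, Smim5 41.4-fold, the adenosine receptor Adora1 40.0-fold, the actin-binding Ablim3 38.8-fold, Otog 35.0-fold, the membrane protein Tmem182 34.3-fold, Adamtsl2 33.3-fold and Gprc5c 29.5-fold. Acsbg1, an acyl-CoA synthetase, held 49.4, 53.9 and 44.1 CPM in GM and 3.19, 2.41 and 3.25 CPM at DM2 and fell 16.6-fold (log2 -4.06 ± 0.19). Krt13, an epithelial keratin, fell 25.5-fold, lubricin Prg4 17.9-fold, the Wnt pathway receptor Lgr6 16.9-fold, Ptprn 10.3-fold, cytidine deaminase Cda 9.95-fold, Vill 9.67-fold, Slc16a4 8.68-fold, the interferon-induced Ifitm1 8.02-fold and Mgst2 7.79-fold. Krt13 held 9.49, 9.44 and 9.41 CPM in GM and 0.435, 0.417 and 0.239 CPM at DM2.

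Some genes received no read in GM. Among all gene identifiers, tested or not, with at least 30 counts over 1 group and 0 over the other, 8 had 0 counts in GM, and no gene had 0 at DM2. Shisal1 received 55, 78 and 79 reads at DM2 and 0 in each GM library, at least 67.1-fold higher against a floor of 3 counts over the GM group. Chil1 was at least 51.6-fold, Ptgds, a prostaglandin synthase, at least 38.9-fold and the claudin Cldn2 at least 14.2-fold higher by the same floor. These genes were named after their values were seen.

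Markers of other cell types, 10 genes each, were also summed. The endothelial list ran from 3.85 to 5.29 TPM in GM and from 1.29 to 2.16 at DM2, and of 2 tested genes 1 fell. The blood and immune list ran from 1.49 to 2.27 TPM in GM and from 1.13 to 1.71 at DM2, with 2 genes tested and neither called. The adipocyte list ran from 33.7 to 34.7 TPM in GM and from 22.4 to 26.4 at DM2; 3 of 4 tested genes fell, and 3 of the 10 were at 0 in all 6 libraries. The cartilage and bone list ran from 24.8 to 27.4 TPM in GM and from 25.9 to 28.3 at DM2, with 1 of 5 tested genes higher and 1 lower. The neuron list ran from 134 to 158 TPM in GM and from 49.8 to 90.4 at DM2, with 2 of 6 lower. Most of its GM sum was Stmn2, with a mean of 109.1 TPM of 147.5 in GM and 32.4 TPM of 63.9 at DM2. The fibroblast list ran from 508 to 610.4 TPM in GM and from 205 to 244 at DM2, with 2 of 8 higher and 4 lower. Most of its sum was Ly6a, with a mean of 519 TPM of 571.8 in GM and 113.5 TPM of 222.1 at DM2. Its fall therefore does not describe the other members, of which Dcn went from 8.51 TPM in GM to 74.8 TPM at DM2. The smooth muscle list ran from 5220 to 5849 TPM in GM and from 7237 to 7991 at DM2, with 3 of 8 higher and 1 lower, and it holds Des, which myoblasts make. Their part in the other results was not tested. Within the fibroblast list Ly6a (Sca-1) held 267, 333 and 309 CPM in GM and 64.8, 57.9 and 51.7 CPM at DM2 and fell 5.21-fold (log2 -2.38 ± 0.13), against Dcn, which rose. Stmn2, a microtubule protein of neurons, held 159, 212 and 156 CPM in GM and 51.0, 42.6 and 44.5 CPM at DM2 and fell 3.81-fold.

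The same switch of medium in the depleted lines called 7680 genes (55.1%) with ERK3 depleted and 6876 (49.3%) with MK5 depleted. Of the 3140 genes that rose in the control line, 1915 also rose in the ERK3-depleted line, which is 61.0% of the control list and 47.6% of the other, and 159 fell. With MK5 depleted 1871 also rose (59.6% and 54.6%) and 111 fell. Of all tested genes 28.9% rose with ERK3 depleted and 24.6% with MK5 depleted. Of the 3216 that fell, 1790 also fell with ERK3 depleted (55.7% and 49.0%) and 188 rose, and 1802 also fell with MK5 depleted (56.0% and 52.2%) and 91 rose. Of all tested genes 26.2% fell with ERK3 depleted and 24.8% with MK5 depleted. The response itself differed from that of the control line for 3983 genes (28.6%) with ERK3 depleted and for 2512 (18%) with MK5 depleted, by the test of the difference in the same fit. With ERK3 depleted the difference was positive for 2033 (14.6%) and negative for 1950 (14%), and with MK5 depleted positive for 1190 (8.54%) and negative for 1322 (9.48%).

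The change of all 4 marker genes was smaller in the ERK3-depleted line than in the control line. Myog rose by log2 3.57 there against 5.29 in the control line, and the difference was called (-1.72 ± 0.48, adjusted p = 0.0162). The difference was -2.42 ± 0.62 for Mymk (adjusted p = 0.0118), -1.88 ± 0.55 for Myh3 (0.022) and 0.99 ± 0.22 for Mki67 (0.00534), whose log2 fold change was -0.42 in that line. In the MK5-depleted line the difference for Mki67 was called (0.88 ± 0.22, adjusted p = 0.0161), and those for Myog, Mymk and Myh3 were not (-0.72 ± 0.48, -1.16 ± 0.63 and -0.85 ± 0.56). Both depleted lines entered these tests against the same control libraries.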

How the data were processed

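Poly-A RNA of 18 C2C12 libraries was sequenced with a stranded kit, per the labels' protocols. The authors deposited raw read counts per gene with unstranded, forward and reverse columns, and RSEM expected counts with TPM values. The submitters' processing notes name STAR 2.5.1b, RSEM 1.2.28, bcl2fastq 2.17 and GRCm38.

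The reverse-strand counts were used, which hold 93.2 to 95.3% of the reads assigned to 1 strand. The summary lines that name no gene hold 21.7 to 25.7% of reads and were left out. The 50600 identifiers were matched to GENCODE M21 (50376 matched). Genes passing filterByExpr were fitted in edgeR 4.0.16 (R 4.3.3) with TMM scaling, 1 mean for each of 6 groups and the robust quasi-likelihood test, and a call is an adjusted p under 0.05. CPM use the TMM-scaled library sizes. All 18 libraries share 1 estimate of the spread (12 residual degrees of freedom). Errors beside log2 fold changes are standard errors, and those beside CPM are SD over 3 libraries.

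Libraries were grouped by their labels. The members and gene lists were chosen with earlier results of these data known, and 25 genes stand in more than 1 list. The genes named are the 4 markers, the anchors of each list, the called members of largest change with at least 5 CPM and no overlap between groups, those against the list's direction, and 10 each way outside the lists. Genes of the rule not named are given by counts, some results are not reported here, and other names are marked as chosen after seeing values. Promoter windows come from RefSeq (GRCm38.p6). Alternatives were RLE size factors, DESeq2 1.42.0, other filters, only the control libraries, the replicate block, RSEM expected counts rounded to whole numbers, unstranded counts, limma 3.58.1 on log2 TPM, length and GC offsets, and leaving out each library. The procedure was tested on simulated data. Intervals for counting error are not given, since the spread between libraries was larger.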

Additional observations from a re-analysis of the deposited data

Results flagged for a closer look

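The response to the medium differed between lines by the test of the difference itself, edgeR's quasi-likelihood test with Benjamini-Hochberg adjustment. With ERK3 depleted 3983 genes responded differently from the control line. Among them were Myog (-1.72 on the log2 scale), Mymk (-2.42), Myh3 (-1.88) and Mki67 (0.99). With MK5 depleted 2512 genes did, Mki67 among them (0.88). All of these tests use the same 6 control libraries, and depletion and any other difference between the stable lines cannot be told apart.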

How the results depend on the processing

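Of 239 named genes that were followed through the alternatives, 239 kept their direction and their side of the threshold with RLE size factors, with DESeq2 and on the RSEM expected counts. Without both control libraries numbered 1, a fit chosen after seeing the data, 235 did, and the calls of Rbl1, Ptbp2, Srsf7 and Hnrnpa2b1 were lost. The limma fits on TPM lost the calls of 11 (TPM + 1) and 14 (TPM + 0.1) of them. Calls over all genes were 3151 higher and 3178 lower with RLE size factors, 3215 and 3203 with DESeq2, and 2713 to 2791 and 2704 to 2856 when 1 control library was left out. The limma fits on TPM called 1614 and 1698 genes lower. The counts of lists that moved by over 1.5 times follow, and their cause was not tested. Small counts move by this much with 1 gene. The depth limits the genes with few reads, such as Dmd, Chrne and Myf6, which were not tested. With DESeq2, called lower were 6 of the p53 list. On the RSEM expected counts, called lower were 1 of the serum list. Without both control libraries numbered 1, called higher were 0 of the cartilage and bone marker list, 1 of the cytoskeleton list and 13 of the lysosome list, and called lower were 0 of the ribosome biogenesis and splicing lists each, 1 of the fusion, lysosome and noncoding RNA lists each, 2 of the bHLH list, 3 of the ATF4 list, 4 of the G1 and neuron marker lists each and 6 of the respiratory list. With a filter of 1 CPM in 3 libraries, called higher were 0 of the cartilage and bone marker list. With limma on log2(TPM + 0.1), called higher were 0 of the cartilage and bone marker list, 1 of the interferon list and 5 of the cytoskeleton list, and called lower were 0 of the fusion, ribosome biogenesis and cholesterol lists each, 1 of the bHLH, coupling, serum, splicing, ATF4 and lysosome lists each, 2 of the G1 list, 3 of the envelope and Notch lists each, 4 of the respiratory list, 5 of the chromatin and growth factor lists each, 6 of the cytoskeleton list, 8 of the glycolysis list and 17 of the replication and mitosis lists each. With limma on log2(TPM + 1), called higher were 0 of the cartilage and bone marker list, 1 of the interferon list, 5 of the cytoskeleton list and 9 of the myosin list, and called lower were 0 of the fusion, ribosome biogenesis and cartilage and bone marker lists each, 1 of the serum, splicing, ATF4, lysosome, noncoding RNA, adipocyte marker and neuron marker lists each, 2 of the bHLH and G1 lists each, 3 of the envelope and Notch lists each, 4 of the respiratory list, 5 of the growth factor list, 6 of the chromatin and cytoskeleton lists each and 8 of the glycolysis list. With no filter on low counts, called higher were 1 of the endothelium marker list, and called lower were 1 of the lysosome and blood and immune marker lists each, 4 of the noncoding RNA and neuron marker lists each and 6 of the splicing list. With only the 6 control libraries, called higher were 1 of the endothelium marker list, 2 of the interferon list and 5 of the cytoskeleton list, and called lower were 1 of the adipocyte marker and blood and immune marker lists each, 2 of the myosin list, 3 of the cartilage and bone marker list, 6 of the p53 list, 8 of the splicing list and 18 of the respiratory list. On the unstranded counts, called lower were 1 of the serum and blood and immune marker lists each and 3 of the creatine list. Leaving out 1 control library at a time called 1 to 2 fusion genes lower, 0 to 1 dystrophin genes lower, 1 to 3 serum genes lower, 0 to 1 ribosome biogenesis genes lower, 2 to 5 splicing genes lower, 3 to 5 envelope genes higher, 1 to 2 cytoskeleton genes higher, 7 to 11 cytoskeleton genes lower, 1 to 2 cholesterol genes lower, 0 to 1 interferon genes higher, 1 to 2 lysosome genes lower, 1 to 3 noncoding RNA genes lower, 0 to 1 cartilage and bone marker genes higher, 2 to 5 neuron marker genes lower and 0 to 1 blood and immune marker genes lower.

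The libraries of both media share numbers 1 to 3, and the labels do not say what a number stands for. Same-numbered control libraries deviated from their group means with correlations of 0.172, -0.021 and 0.024 across genes, and the main fit did not use the number. The control libraries numbered 1 also lay together on the second principal component (-17.5 at DM2 and -19.2 in GM, the others 6.65 to 10.9). What these libraries share was not tested. In the ERK3-depleted line the same correlations were 0.156, 0.291 and 0.29, all over 0.1, and in the MK5-depleted line -0.0698, 0.223 and -0.0917. With the replicate block within each line the ERK3 response differed from the control response in 2337 genes upward and 2338 downward, and the MK5 response in 1737 and 1880, against 2033 and 1950 and 1190 and 1322 without it. The blocked ERK3 differences were -1.77 for Myog, -2.51 for Mymk, -1.92 for Myh3 and 0.98 for Mki67 (adjusted p = 0.0385, 0.0229, 0.0326 and 0.00381, edgeR), so no call of the 4 markers changed. In the control line, but not in the ERK3-depleted line, the libraries numbered 2 and 3 in GM correlated best with another number at DM2. With the replicate number as a block the calls were 3411 higher and 3464 lower within each line, and 3955 and 3757 in only the 6 control libraries, where Neat1 was no longer called. With the replicate block within each line, called higher were 2 of the interferon list, and called lower were 4 of the serum and neuron marker lists each and 5 of the splicing and p53 lists each. With the replicate block in only the 6 control libraries, called higher were 2 of the interferon list and 5 of the cytoskeleton list, and called lower were 1 of the adipocyte marker and blood and immune marker lists each, 2 of the MEF2, myosin, thin filament and smooth muscle marker lists each, 3 of the cartilage and bone marker list, 4 of the serum list, 6 of the p53 list and 8 of the splicing list. With length and GC offsets, called higher were 2 of the interferon list, 3 of the envelope list and 4 of the cytoskeleton list, and called lower were 1 of the synapse list, 2 of the MEF2, myosin, ribosome biogenesis and cartilage and bone marker lists each, 4 of the cholesterol list, 6 of the splicing list and 7 of the respiratory and p53 lists each. With these offsets and the replicate block, called higher were 2 of the interferon list and 4 of the cytoskeleton list, and called lower were 1 of the synapse list, 2 of the bHLH, myosin, thin filament, cartilage and bone marker and smooth muscle marker lists each, 3 of the MEF2 and ribosome biogenesis lists each, 4 of the serum, cholesterol and neuron marker lists each, 7 of the p53 list, 8 of the matrix list, 9 of the splicing list and 14 of the envelope list.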
